A study of Mus musculus with 20 samples.

Results

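The 37 genes described here encode forkhead factors (Fox proteins), and they were taken by name and by their mm10 position from the 21887 protein-coding genes of the numbered chromosomes, X and Y. Each gene was read together with 1 kb beyond both ends, called its window, and 20 members carried H3K27ac with H3K27me3 over less than 50% of the window. Another 16 members lay in H3K27me3, which covered 50% or more of their window, and Foxi1 had no peak of the 3 histone marks. The first group is called acetylated below and the second H3K27me3 domain. RNA was not analysed here, so the classes describe chromatin marks and not expression. Forkhead genes outside the 37 were not analysed here.

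Forkhead factors bind DNA through a winged helix domain, and several of them can bind their sites in closed chromatin. FoxO factors are held in the cytoplasm by insulin and Akt signalling, FoxM1 acts on genes of mitosis, and Foxa, Foxc, Foxd and Foxf factors pattern endoderm, mesenchyme and neural crest. Acetylation of histone H3 at lysine 27 (H3K27ac) marks active promoters and enhancers, trimethylation at lysine 4 (H3K4me3) marks promoters, and trimethylation at lysine 27 (H3K27me3) is laid down by Polycomb complexes over silent developmental genes. HEB, the product of Tcf12, belongs to the E proteins, helix-loop-helix factors that bind the E-box CANNTG.

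The cells were Comma-Dβ, an established mouse mammary epithelial line, at passage 28, in a medium with serum, insulin and epidermal growth factor. The 20 chromatin immunoprecipitation (ChIP-seq) samples fell into 5 groups of 4 replicates, one for the HEB antibody, one each for H3K27me3, H3K4me3 and H3K27ac, and one for input chromatin, with no treatment or genotype that differed between groups. The data analysed were 4 peak lists, 1 per antibody, with no column per replicate, so each value below is a single value, no difference can be set against replicate error and no test was run. They held 61496 H3K27ac peaks over 120.1 Mb, 17162 H3K4me3 peaks over 32.7 Mb, 114660 H3K27me3 peaks over 379.1 Mb and 956 HEB sites. Counts and medians are therefore given beside the same value over all protein-coding genes.

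The labelled cell type was checked on fixed markers. All 6 markers of simple epithelium (Krt8, Krt18, Krt7, Epcam, Cdh1, Cldn7), all 4 basal and all 4 luminal markers had an H3K27ac peak, although H3K27me3 covered 77.4% of the window of Cldn7 and 88.0% of that of Krt5. Markers of other cell types were mixed: 2 of 4 immune, 2 of 4 endothelial, 3 of 4 neuronal, 2 of 4 adipocyte and 3 of 4 fibroblast genes had an H3K27ac peak, with a peak of 26.4 kb at Col1a1. Cd3e, Cdh5, Adipoq, Fabp4 and Lum, among others, had neither H3K27ac nor H3K4me3.

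The starts of 7 members show the states that the results turn on: marked by H3K27ac and H3K4me3 (Foxk2, Foxc1), by H3K27me3 alone (Foxa2, Foxa3), by H3K4me3 with H3K27me3 (Foxl2), by H3K4me3 alone (Foxd2) and by no peak (Foxi1). The state is that of the start base: an H3K27ac peak covers 249 of the 300 bases printed for Foxd2 and ends just short of the start. Each run holds the 250 bases before and 50 after a start listed by RefSeq on GRCm38.p6, whose sequence mm10 shares, printed 5′ to 3′ on the strand of the gene, with every CG dinucleotide in capitals. The windows are chr11:121259737-121260036 on the plus strand for Foxk2, chr13:31806396-31806695 on the plus strand for Foxc1, chr2:148046920-148047219 on the minus strand for Foxa2 (the most upstream of 3 listed starts) and chr7:19023490-19023789 on the minus strand for Foxa3. Those of the others are chr9:98955357-98955656 on the plus strand for Foxl2, chr4:114908849-114909148 on the minus strand for Foxd2 and chr11:34208040-34208339 on the minus strand for Foxi1.
Foxk2: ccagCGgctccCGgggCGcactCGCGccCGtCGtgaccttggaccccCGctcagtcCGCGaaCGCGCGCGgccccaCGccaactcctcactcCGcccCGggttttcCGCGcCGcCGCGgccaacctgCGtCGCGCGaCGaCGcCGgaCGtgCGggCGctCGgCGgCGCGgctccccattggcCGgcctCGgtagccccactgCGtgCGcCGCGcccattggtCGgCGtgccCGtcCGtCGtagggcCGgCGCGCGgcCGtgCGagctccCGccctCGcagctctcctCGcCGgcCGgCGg
Foxc1: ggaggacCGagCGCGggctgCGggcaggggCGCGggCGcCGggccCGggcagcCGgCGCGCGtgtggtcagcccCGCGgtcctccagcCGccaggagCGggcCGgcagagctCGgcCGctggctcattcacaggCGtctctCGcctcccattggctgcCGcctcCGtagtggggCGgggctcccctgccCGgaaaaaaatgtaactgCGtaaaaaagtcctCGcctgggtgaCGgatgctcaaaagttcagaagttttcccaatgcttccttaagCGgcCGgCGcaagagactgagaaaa
Foxa2: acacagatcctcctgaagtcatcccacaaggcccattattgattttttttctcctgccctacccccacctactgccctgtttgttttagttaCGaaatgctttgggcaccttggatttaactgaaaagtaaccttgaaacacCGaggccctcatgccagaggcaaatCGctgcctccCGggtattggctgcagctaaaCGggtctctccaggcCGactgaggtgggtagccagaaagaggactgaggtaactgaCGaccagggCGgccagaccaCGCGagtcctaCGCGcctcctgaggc
Foxa3: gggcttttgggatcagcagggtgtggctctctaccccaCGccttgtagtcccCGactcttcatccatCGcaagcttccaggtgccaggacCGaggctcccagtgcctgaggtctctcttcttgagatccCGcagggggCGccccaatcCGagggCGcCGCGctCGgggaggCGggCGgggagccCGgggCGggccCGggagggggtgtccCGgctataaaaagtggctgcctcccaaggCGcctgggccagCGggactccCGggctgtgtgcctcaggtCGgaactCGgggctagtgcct
Foxl2: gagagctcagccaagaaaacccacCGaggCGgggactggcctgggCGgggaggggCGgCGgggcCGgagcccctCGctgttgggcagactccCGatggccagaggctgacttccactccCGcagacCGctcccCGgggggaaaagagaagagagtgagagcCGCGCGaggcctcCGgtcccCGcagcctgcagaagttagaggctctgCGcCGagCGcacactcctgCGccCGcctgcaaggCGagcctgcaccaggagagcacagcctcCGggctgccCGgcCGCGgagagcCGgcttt
Foxd2: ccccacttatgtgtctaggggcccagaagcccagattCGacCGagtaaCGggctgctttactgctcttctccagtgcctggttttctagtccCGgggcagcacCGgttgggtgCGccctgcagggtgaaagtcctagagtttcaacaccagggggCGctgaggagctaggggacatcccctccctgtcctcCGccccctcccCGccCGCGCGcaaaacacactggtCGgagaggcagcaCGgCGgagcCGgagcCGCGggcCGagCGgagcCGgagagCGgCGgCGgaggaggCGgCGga
Foxi1: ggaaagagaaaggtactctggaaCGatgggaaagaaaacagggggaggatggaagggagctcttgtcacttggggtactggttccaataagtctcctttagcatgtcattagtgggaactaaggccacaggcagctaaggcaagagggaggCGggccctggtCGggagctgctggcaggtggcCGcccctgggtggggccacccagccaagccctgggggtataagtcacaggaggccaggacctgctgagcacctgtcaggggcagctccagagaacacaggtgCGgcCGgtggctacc

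The capitals show how uneven the CpG content is. The Foxk2 start held 59 CG dinucleotides in 300 bases, Foxc1 32, Foxl2 27, Foxd2 26, Foxa3 22 and the Foxa2 start shown 12. Foxi1, the member with no mark, held 6.

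Against all protein-coding genes, the members differed mainly in H3K27me3. The H3K27me3 domain class held 16 of 37 members (43.2%) and 15.2% of all protein-coding genes (14.7% of those on autosomes, where all members lie). The acetylated class held 20 members (54.1%), beside 60.3% of all genes. In neither class was 1 member, Foxi1 (2.70%), beside 24.5% of all genes. Genes in neither class had no H3K27ac peak in the window and too little H3K27me3 for the domain class. Over all protein-coding genes, 39.7% of those in neither class still had an H3K27me3 peak in the window. At least 1 H3K27me3 peak lay in the window of 22 members (59.5%; all genes 37.5%), an H3K27ac peak in 25 (67.6%; all genes 63.2%) and an H3K4me3 peak in 26 (70.3%; all genes 61.2%). For H3K27ac and H3K4me3 the members' shares were near those of all genes.

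Marks that are usually read as opposite met at part of the members. All 3 marks touched the window of 10 members (27%), beside 11.5% of all genes. H3K4me3 with H3K27me3 and without H3K27ac was found at Foxb2 and Foxl2 only (5.41%), beside 4.06% of all genes. A window with none of the marks was found at Foxi1 alone (2.70%), beside 13.9% of all genes. H3K27me3 as the single mark was found at 9 members (24.3%), beside 17.9% of all genes: Foxa2, Foxb1, Foxd3, Foxd4, Foxe1, Foxe3, Foxi2, Foxn4 and Foxp2. The lists were made from many cells, so marks on the same molecule and marks in different cells of the culture cannot be told apart.

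**Figure D1:**
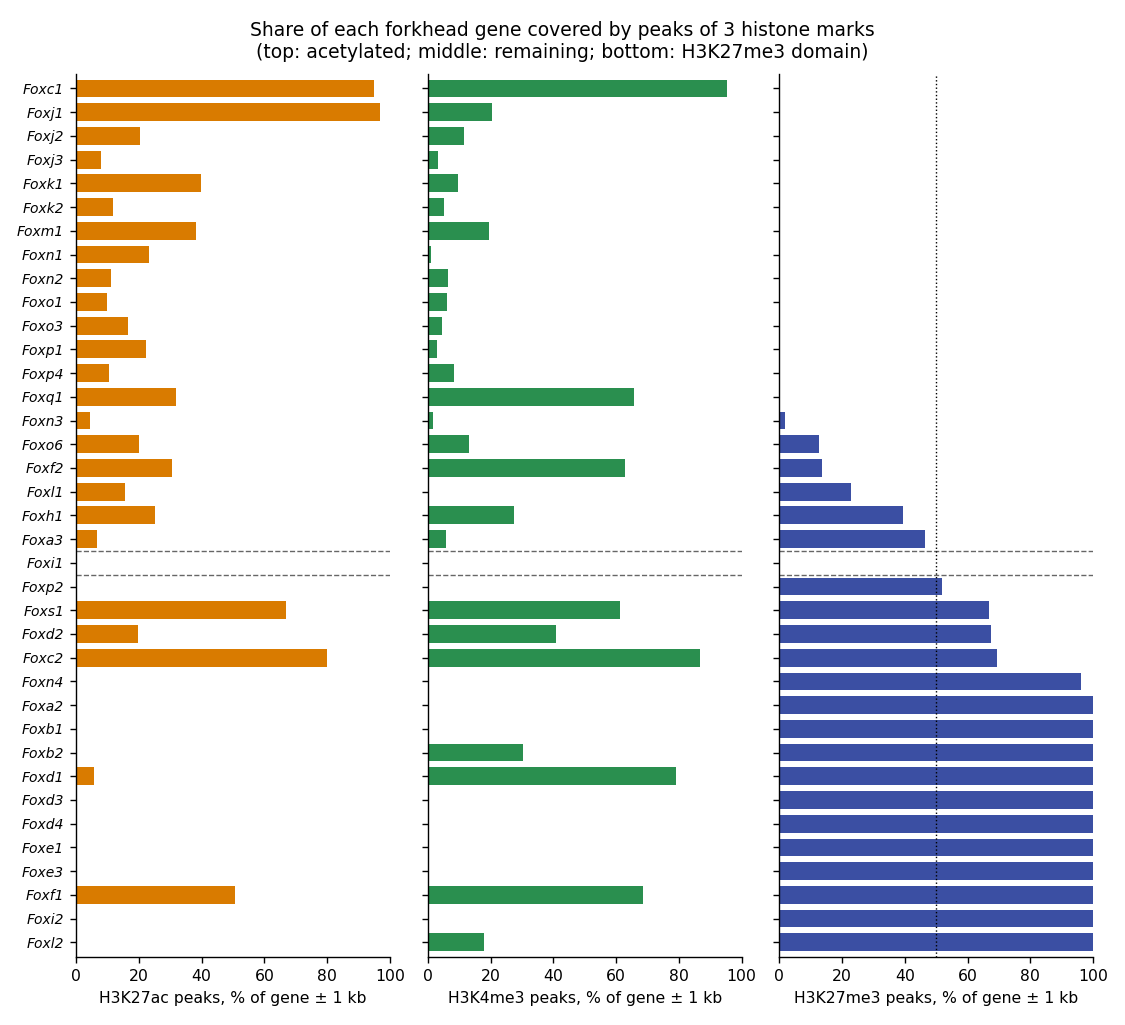
Share of each member's window (gene ± 1 kb) in peaks of H3K27ac, H3K4me3 and H3K27me3, in percent, 1 bar per gene and mark from 1 peak list per antibody; dashed lines separate acetylated genes, Foxi1 and the H3K27me3 domain genes, and the dotted line stands at 50%. H3K27me3 covers the whole window of 11 genes and no part of that of 14 acetylated genes, and Foxa3 (46.3%) and Foxp2 (51.8%) lie nearest to the line.

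The class line runs between neighbours that differ little. Foxa3, with H3K27me3 over 46.3% of its window, was the acetylated member nearest to the line, and Foxp2, with 51.8%, was the domain member nearest to it. Of the 20 acetylated members 14 (70%) had no H3K27me3 peak in the window at all, beside 79% of all acetylated genes. H3K27me3 over the whole window was found at 11 of the 16 domain members, beside 25.2% of all domain genes, which have a median length of 12.2 kb against 2.57 kb of the domain members.

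The FoxO genes among the members (Foxo1, Foxo3 and Foxo6), all in the acetylated class, differed in H3K27ac and in H3K4me3. The fold of a peak is the authors' deposited enrichment of ChIP over control. The top fold is that of the strongest peak in the window. Peak counts include weak peaks: of all H3K27ac peaks, 45.0% had −log10 q of 5 or more. Foxo1 and Foxo3, which are among the FoxO factors that Akt keeps out of the nucleus, had 5 and 9 H3K27ac peaks. At Foxo1 the widest H3K27ac peak was 3.39 kb with a top fold of 2.91, and the H3K4me3 peak was 4.94 kb with a fold of 25.4. At Foxo3 the widest H3K27ac peak, over the listed start, was 5.12 kb with a fold of 5.68, and the H3K4me3 peak was 5.52 kb with a fold of 25.3. The top H3K27ac fold of Foxo3, 6.32, was that of a peak of 4.35 kb beyond the gene. These genes thus had like H3K4me3 folds and unlike H3K27ac. No H3K27me3 peak lay within 100 kb of Foxo3. Foxo6, a FoxO factor known from the brain, had 3 H3K27ac peaks (top fold 6.23) but a lower H3K4me3 fold of 7.24, and H3K27me3 covered 12.6% of its window.

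Foxk1 and Foxk2, repressors of autophagy genes that recruit Sin3, were both acetylated with different surroundings. Foxk1 had 10 H3K27ac peaks over 39.7% of its window, with a widest peak of 6.93 kb and a top fold of 5.11, and its strongest H3K4me3 fold was 21.8. H3K27me3 was absent from that window and covered 40.4% of the gene ± 100 kb, the highest share of any acetylated member. Foxk2 had 8 H3K27ac peaks over 11.8% of the window (top fold 3.75). Only the peak over the listed start had −log10 q of 5 or more. The other H3K27ac peaks of Foxk2 had folds from 1.77 to 1.99. Its H3K4me3 fold was 32.3, and H3K27me3 covered 3.44% of the gene ± 100 kb. Foxm1, the mitotic factor, had 2 H3K27ac peaks, the wider 7.63 kb, with a top fold of 4.57. That wider peak and the H3K4me3 peak, with a fold of 27.9, both also reached an end of Rhno1, so they cannot be given to Foxm1 alone.

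Foxc1, a mesenchymal and ocular factor also known from basal-like breast cancer, had the highest H3K27ac fold of the 37 members. A single H3K27ac peak of 7.21 kb with a fold of 9.01 covered 94.9% of its window, and an H3K4me3 peak of 6.91 kb with a fold of 24.7 covered 95.3%. Foxj1, the factor that drives motile cilia, had the only larger H3K27ac share, 96.9%, from 1 peak of 9.68 kb with a fold of 4.52. That peak and the H3K4me3 peak of 1.40 kb (fold 14.4) both also reached an end of Rnf157. Foxq1, a factor of hair and of epithelial plasticity, had 1 H3K27ac peak of 1.53 kb (fold 3.81) and an H3K4me3 peak of 3.17 kb (fold 15.4).

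Foxj2, Foxj3, Foxn2, Foxp4 and Foxn3 had H3K4me3 top folds from 16.04 to 26.6. Foxj2 had 3 H3K27ac peaks with a top fold of 3.52 and an H3K4me3 fold of 26.6. Foxj3 had 5 H3K27ac peaks with a top fold of 5.73 and an H3K4me3 fold of 20.6, both in peaks that also reached Frg2f1, and 6 H3K27ac peaks within 100 kb, the fewest of the acetylated members. Foxn2 had 4 H3K27ac peaks (top fold 4.13) and an H3K4me3 fold of 16.6, and Foxp4, a repressor that pairs with Foxp1 and Foxp2, had 2 (top fold 4.02) and an H3K4me3 fold of 16.04. Foxn3, a checkpoint factor whose gene spans 373.6 kb, had 10 H3K27ac peaks over 4.24% of its window (top fold 4.54) and 5 H3K4me3 peaks (top fold 22.5, in a peak that also reached Gm51999), with H3K27me3 over 1.69%.

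Foxn1 and Foxl1 had the weakest H3K4me3 of the acetylated class. Foxn1, the factor of thymic epithelium and hair keratinocytes, had 4 H3K27ac peaks with a top fold of 7.55, but its H3K4me3 peak was 0.332 kb wide with a fold of 4.13, the lowest of the class, and its listed start lay in no peak. Foxl1, a factor of gut mesenchyme, was the one acetylated member without an H3K4me3 peak. Its H3K27ac peak of 5.66 kb (fold 7.28) lay 0.227 kb beyond the gene, and H3K27me3 covered 22.7% of the window (fold 1.76). Foxl1 is counted as acetylated through this neighbouring peak alone.

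The other acetylated members with H3K27me3 were Foxf2, Foxh1 and Foxa3. Foxf2, a hedgehog target in mesenchyme, had 2 H3K27ac peaks (top fold 2.88, the lowest of the class), an H3K4me3 peak of 4.77 kb (fold 11.4) and H3K27me3 over 13.7% of the window. Foxh1, the Smad partner in Nodal signalling, had the highest H3K4me3 fold of the members, 40.1, in a peak that, like its H3K27ac peak, also reached an end of Ppp1r16a, and H3K27me3 over 39.4% in a peak that also reached Cyhr1 and Kifc2. Foxa3, an endodermal pioneer factor, had an H3K4me3 fold of 34.3 in a peak that also reached Sympk. Its nearest H3K27ac, 0.545 kb from the gene, also reached Sympk, and its listed start, printed above, lay in H3K27me3 (fold 2.42) and in neither of the other marks. For these 2 genes the tall H3K4me3 peak is shared with a neighbour, and the part of the neighbour was not tested.

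The domain class held 16 members. Foxb1 and Foxb2 (brain), Foxd1, Foxd2, Foxd3 and Foxd4 (kidney stroma, neural crest and others), Foxe1 (thyroid), Foxe3 (lens), Foxl2 (ovary), Foxi2, Foxn4 (retina and spinal cord), Foxa2 (endoderm), Foxf1, Foxc2 (lymphatic vessels), Foxs1 and Foxp2 made up the class. H3K27me3 folds there ran from 2.02 at Foxc2 to 4.51 at Foxl2, with a median of 3.29, and at the 6 acetylated members with H3K27me3 from 1.76 to 2.42, with a median of 1.99. These folds belong to the mark that made the class and are given as a description.

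The lengths of H3K27me3 at these genes spread over 2 orders of size. When H3K27me3 peaks at most 3 kb apart were joined, the domain at a member was 3.54 kb at the shortest (Foxc2), 48.1 kb at the median and 443.2 kb at the longest (Foxb1). The next were Foxd2 with 130.6 kb, Foxa2 with 130.0 kb, Foxn4 with 101.8 kb, Foxs1 with 76.0 kb and Foxd4 with 71.0 kb. The H3K27me3 peaks at Foxn4 also reached Acacb and Myo1h, and the peak at Foxs1 also reached Dusp15 and Ttll9. The Foxd2 domain ended inside that gene. Such lengths cannot be given to the forkhead gene alone, and joined lengths were not computed at all protein-coding genes. The Foxb1 domain was in peaks over 95.6% of its length. H3K27me3 covered 95.0% of Foxb1 ± 100 kb, and the nearest H3K27ac peak was 227.8 kb away, the longest such distance in the class. Foxa2 had a single H3K27me3 peak of 93.9 kb (fold 2.87) and its nearest H3K27ac 113.8 kb away.

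H3K4me3 lay in the window of 7 of the 16 domain members (43.8%), beside 25.3% of all genes in H3K27me3 domains, and of 19 of 20 acetylated members (95.0%), beside 90.4% of all acetylated genes. H3K4me3 took no part in making the classes. With only peaks above each list's median fold 2 domain members had it, and with the domain line at 75% of the window 4 did. Its top fold where present had a median of 22.5 at acetylated members (4.13 to 40.1; all acetylated genes 21.3) and of 3.92 at domain members (1.93 to 15.2; all domain genes 4.88). The ranges of the classes overlapped: Foxc2 (15.2), Foxd2 (13.7) and Foxf1 (8.16) in domains lay above or among the acetylated members Foxn1 (4.13), Foxo6 (7.24), Foxf2 (11.4) and Foxj1 (14.4). The remaining domain members with H3K4me3 were Foxd1 (3.92), Foxs1 (3.65), Foxl2 (2.45) and Foxb2 (1.93).

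H3K27ac lay in the window of 5 domain members (31.2%), beside 19.0% of all domain genes. Foxc2, a factor of lymphatic and mesenchymal development, had an H3K27ac peak of 4.34 kb (fold 2.88) over 79.9% of the window and an H3K4me3 peak of 4.58 kb (fold 15.2) over 86.9%, with H3K27me3 over 69.3%. Foxf1, a hedgehog target of lung and gut mesenchyme, had H3K27me3 over the whole window in a peak that also reached Mthfsd. H3K27ac covered 50.8% of that window (fold 3.40) and H3K4me3 68.7% in a peak of 6.78 kb. Foxs1 had H3K27ac over 67.0% in a peak of 9.37 kb (fold 5.75) that also reached Mylk2. Foxd2 had a peak of 0.906 kb (fold 4.03) just beyond the gene, and Foxd1 one of 0.256 kb (fold 2.18), the narrowest and weakest of the 5.

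The surroundings of the genes were read next. H3K27ac peaks within 100 kb numbered 13.5 at the median acetylated member (6 to 55) and 5 at the median domain member (0 to 13), beside 12 and 5 over all genes of each class. With peaks over the window itself left out, the medians were 10 and 4.5, beside 9 and 4. The members thus had about as many H3K27ac peaks around them as other genes of their class. At least 1 H3K27ac peak lay within 100 kb of 33 members (89.2%; all genes 87.3%). Foxp2, Foxa2 and Foxb1 in the domain class and Foxi1 had none.

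H3K27me3 covered 7.33% of the gene ± 100 kb at the median acetylated member (0 to 40.4%) and 46.6% at the median domain member (15.9 to 95.0%), beside 8.47% and 47.6% over all genes of each class. These shares include the window that made the classes. Outside the window the medians were 8.22% (0 to 53.1%) and 43.9% (14.0 to 94.8%), beside 9.59% and 42.9% over all genes of each class, and a domain that covers a window can run on into this flank, so the values are a description. Gene length moved with class too. Acetylated members had a median length of 27.2 kb (2.81 to 597.4 kb; all acetylated genes 24.8 kb) and domain members of 2.57 kb (1.31 to 540.6 kb; all domain genes 12.2 kb). A longer window can hold more peaks, and a given share of it asks for more H3K27me3, and the part of length in the class counts was not tested.

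**Figure D2:**
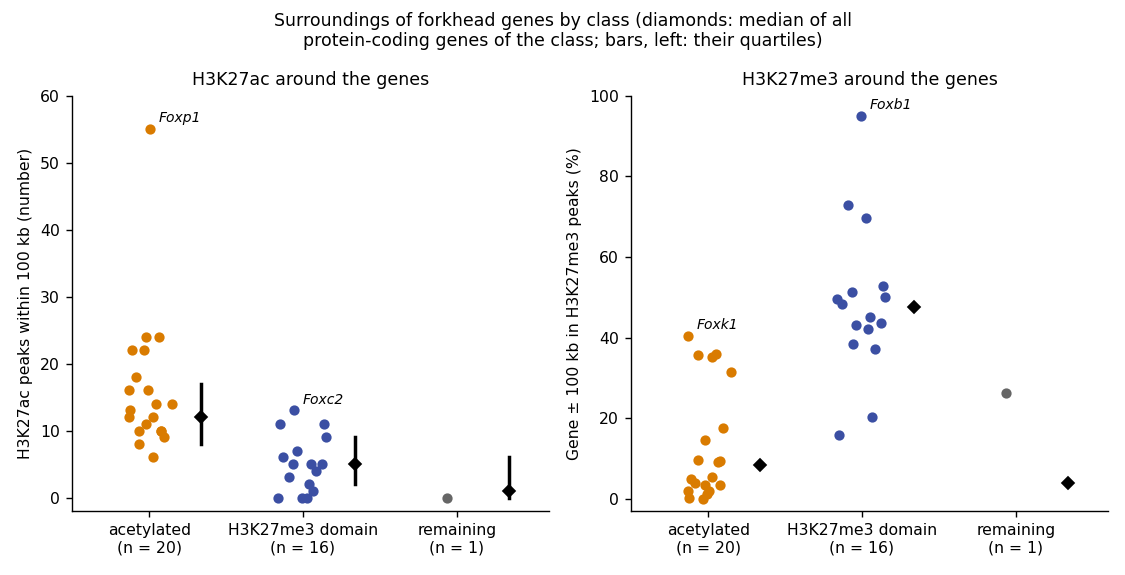
Number of H3K27ac peaks within 100 kb of each gene (left) and percent of the gene ± 100 kb in H3K27me3 peaks (right), 1 point per forkhead gene by class; black diamonds are the medians of all protein-coding genes of that class and the bars at left their quartiles. The acetylated genes have a median of 13.5 H3K27ac peaks and the domain genes of 5. Foxp1 stands alone at 55, of which 50 lie in the window of its 597.4 kb gene and 5 outside it.

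Foxi1, a factor of inner ear and kidney ion-transport cells, was the one member with no peak in its window. The nearest H3K27me3 peak was 1.40 kb from the gene, H3K27me3 covered 26.3% of the gene ± 100 kb, and the nearest H3K27ac peak was 540.2 kb away, farther than at any other member.

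Foxp1 and Foxp2 encode closely related repressors from very long genes on chromosome 6, and their marks were opposite. Foxp2 left the domain class for neither class with only peaks of −log10 q of 5 or more, with only peaks above the median fold, and with the domain line at 75%. Foxp1 (chr6:98925342-99522746, 597.4 kb) had 50 H3K27ac peaks that covered 132.8 kb, or 22.1% of its window, and no H3K27me3 peak. Many of these H3K27ac peaks had −log10 q under 5. The widest was 16.2 kb with a fold of 7.74, the highest in the gene. It met an H3K4me3 peak of 10.0 kb (fold 15.7) at an internal listed start, and a second H3K4me3 peak of 5.76 kb (fold 29.0) lay at the most upstream listed start. A further internal start lay in no peak. Foxp2 (chr6:14901349-15441977, 540.6 kb) had neither H3K27ac nor H3K4me3, and 92 H3K27me3 peaks covered 51.8% of its window, the widest being 38.8 kb with a fold of 1.98. The top fold, 2.46, was that of another peak, of 27.7 kb. Foxp4, on chromosome 17, was acetylated like Foxp1 with 2 H3K27ac peaks.

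**Figure D3:**
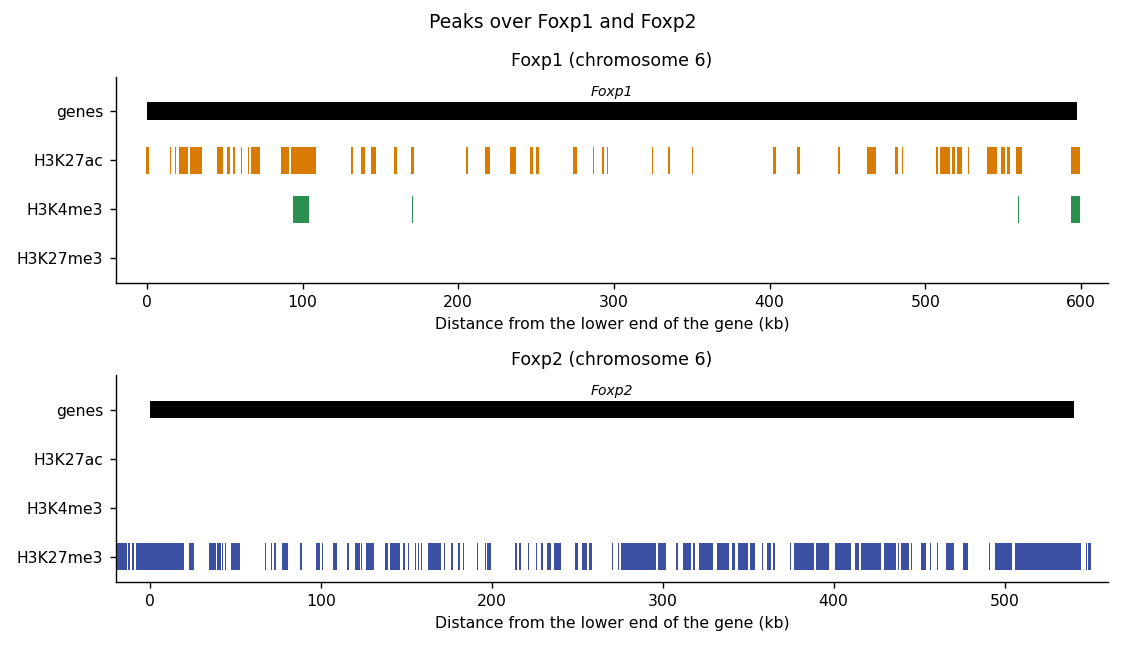
Peaks of the 3 histone marks over Foxp1 and Foxp2 and 20 kb on either side, in kb from the lower end of the gene; black bars are the genes and coloured bars the peaks. Foxp1 holds 50 H3K27ac peaks and no H3K27me3, and Foxp2 holds 92 H3K27me3 peaks and neither of the other marks.

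Members of 1 subfamily letter fell in 1 class at some letters and in different classes at others. The acetylated and domain classes held 54.1% and 43.2% of members, so the members of a small letter can share a class without a link. Whether class goes with letter was not tested. The 37 members fall into 17 letters, of which 13 hold more than 1 member. All members were acetylated in Foxj (3 of 3), Foxk (2 of 2) and Foxo (3 of 3), and all lay in H3K27me3 domains in Foxb (2 of 2), Foxd (4 of 4) and Foxe (2 of 2). The other 7 letters were split: Foxc1, Foxf2, Foxl1, Foxa3 and Foxn1 to Foxn3 were acetylated while Foxc2, Foxf1, Foxl2, Foxa2 and Foxn4 were in domains, Foxp split as above, and Foxi2 was in a domain while Foxi1 had no peak.

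Foxc, Foxf and their neighbours lie in 2 paralogous gene groups of unlike span. On chromosome 13, Foxq1, Foxf2 and Foxc1 spanned 252.5 kb. H3K27ac covered 8.44% of the span in 11 peaks, H3K4me3 5.21% in 5 and H3K27me3 8.70% in 14, and all 3 genes were acetylated. On chromosome 8, Foxf1, Foxc2 and Foxl1 spanned 46.3 kb with Mthfsd among them. H3K27ac covered 36.7% of that span in 6 peaks, H3K4me3 25.2% in 4 and H3K27me3 31.8% in 3, and Foxf1 and Foxc2 were in the domain class. In their own windows the Foxc and Foxf paralogues on chromosome 13 had the lower H3K27me3 shares: 0 at Foxc1 against 69.3% at Foxc2, and 13.7% at Foxf2 against 100% at Foxf1. On chromosome 4, Foxd2 and Foxe3 spanned 19.8 kb, with H3K27ac over 4.58%, H3K4me3 over 11.9% and H3K27me3 over 29.0%, and both were in the domain class. No HEB site lay in any of the 3 spans. These 8 genes are neighbours that share peaks within 100 kb, though not over their windows, and are not independent of each other.

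**Figure D4:**
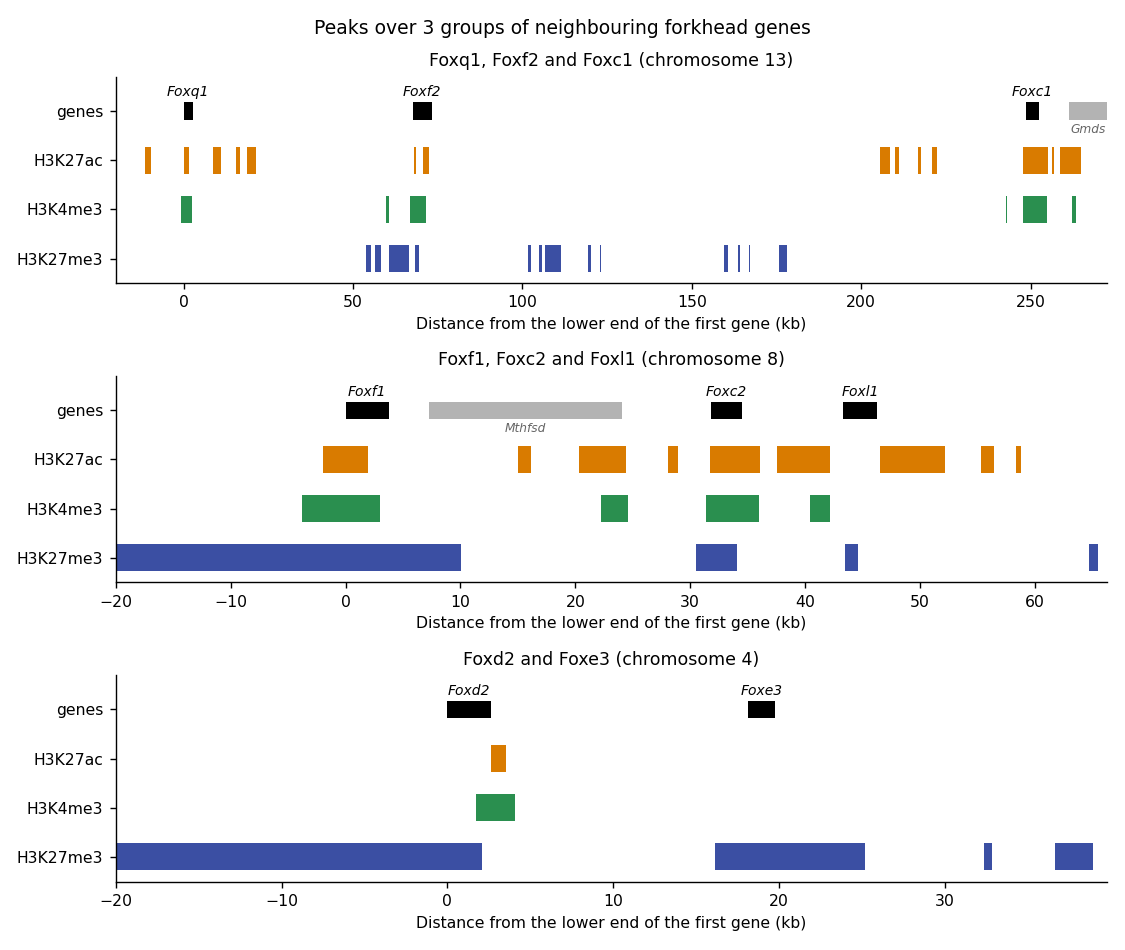
Peaks of the 3 histone marks over 3 groups of neighbouring forkhead genes and 20 kb on either side, in kb from the lower end of the first gene; black bars are forkhead genes, grey bars other protein-coding genes and coloured bars the peaks. H3K27ac covers 36.7% of the chromosome 8 group (17.0 of 46.3 kb), 8.44% of the chromosome 13 group (21.3 of 252.5 kb) and 4.58% of the chromosome 4 group (0.906 of 19.8 kb).

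HEB lay near few genes, forkhead or other. A HEB site was found within 100 kb of 7 members (18.9%), beside 12% of all protein-coding genes, each member with a site of its own. Of acetylated members 5 of 20 had one (25%; all acetylated genes 15.3%) and of domain members 2 of 16 (12.5%; all domain genes 8.71%). These are small counts without replicate error, and in both classes a shift of 1 or 2 genes would bring the share to about that of all genes of the class.

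One site lay inside a member. It was in Foxk1 (chr5:142448093-142448452), 13.6 kb from an end of the gene, in no peak of the 3 marks, and Foxk1 was the only member that was also the gene with the nearest end to its site. The site near Foxs1 (chr2:152925428-152926002) lay 5.90 kb from that gene in the H3K27ac peak of 9.37 kb that also covers Foxs1, and 2.36 kb from an end of Mylk2. The other sites lay 64.0 kb from Foxp4 (chr17:47988663-47989158), 77.9 kb from Foxo6 (chr4:120188714-120189166), 82.7 kb from Foxj1 (chr11:116418229-116418603), 87.9 kb from Foxo1 (chr3:52179558-52180434) and 96.0 kb from Foxn4 (chr5:114370463-114370895). These distant sites do not show which gene, if any, HEB acts on.

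The state of the sites was read from the other lists. H3K27ac covered 5 of the 7 sites and H3K27me3 none. The same shares over all 956 HEB sites are not given here, so these counts only describe the 7 sites. The H3K27ac fold was 8.68 at the Foxo1 site, which also lay in an H3K4me3 peak (fold 3.83), 7.91 at the Foxn4 site, which lies in Kctd10, 6.82 at the Foxo6 site, 5.75 at the Foxs1 site and 2.72 at the Foxp4 site. The sites near Foxk1 and Foxj1 lay in no peak. The median HEB site was 438 bp wide.

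The listed starts put the marks on a finer scale. RefSeq starts were at hand for 23 of the 37 members, 27 starts in all. Of these, 9 lay in H3K27ac and H3K4me3, 9 in H3K27me3 alone and 3 in H3K4me3 and H3K27me3 (Foxb2, Foxd1, Foxl2). In H3K4me3 alone lay 2 (Foxf2, and Foxd2, whose H3K27ac peak ends next to the start). The other 4 lay in no peak (Foxi1, Foxn1 and internal starts of Foxn3 and Foxp1). The upstream end of Foxn3 has no listed start. Peaks of H3K4me3 (fold 12.4), H3K27ac (1.91) and H3K27me3 (1.86) lay over or next to that end. Gene class and start did not always match: the Foxa3 start lay in H3K27me3 although the gene was acetylated, and the Foxd2 start lay outside H3K27me3 although the gene was in the domain class.

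Forkhead starts held more CpG than other starts. Within states the median was also higher, except in H3K4me3 with H3K27me3, where it was 15 over 3 starts (all such starts 22). The 2 starts in H3K4me3 alone had a median of 26.5 (all such starts 20), and states with so few starts are given as a description. The median was 22 CG dinucleotides in 300 bases over the 27 starts and 13 over 21263 starts of all protein-coding genes. In H3K27ac with H3K4me3 it was 35 (13 to 59; all such starts 22), with Foxk2 highest and the most upstream Foxp1 start lowest. In H3K27me3 alone it was 13 (5 to 25; all such starts 5), with Foxd3 highest and Foxi2 lowest. The 4 starts in no peak had 5 to 8 (all such starts 3). The CpG counts of starts in H3K27me3 alone overlapped those in H3K27ac with H3K4me3 only through the Foxp1 start with 13. Starts of 1 gene can lie close together, as the 3 of Foxa2 do, and are not independent.

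**Figure D5:**
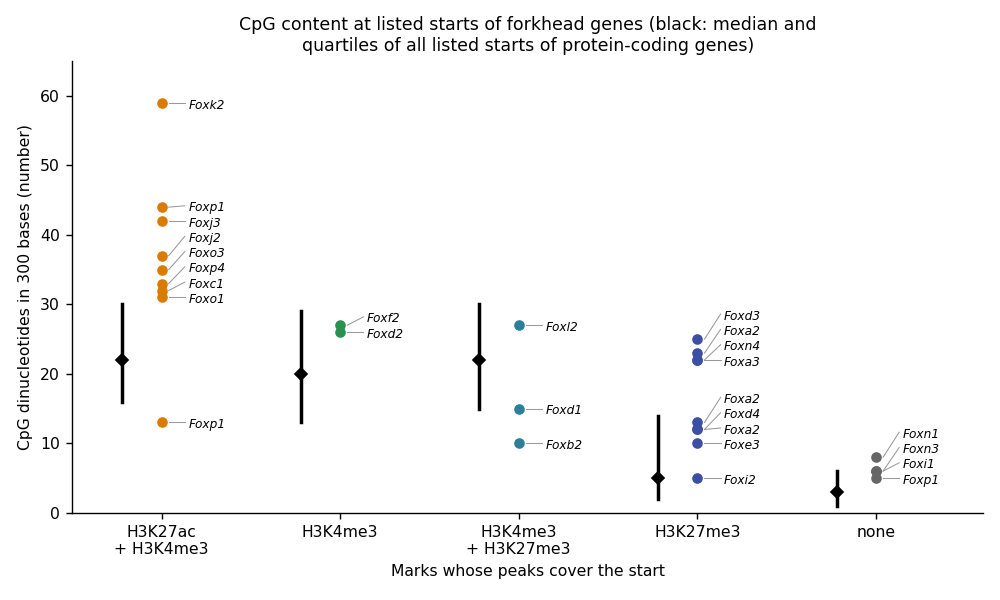
CG dinucleotides in the 300 bases around each listed forkhead start, by the marks whose peaks cover the start; points are starts (a gene with several starts appears several times), and black diamonds and bars are the median and quartiles of all listed starts in that state. Forkhead starts in H3K27ac with H3K4me3 have a median of 35 and those in H3K27me3 alone of 13, beside 22 and 5 over all starts.

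Motif matches were searched in the same 300 bases on both strands. The E-box CANNTG was found in 16 of 27 starts (59.3%; all starts 69.0%). Its form CAGCTG was in 3 (11.1%; all starts 15.6%) and CAGGTG in 6 (22.2%; all starts 19.7%), and both forms are also counted under CANNTG. Foxi1 had 4 matches to CANNTG, of which 3 were CAGGTG. The forkhead motif GTAAACA was in no member start and in 3.01% of all starts, and TATAAA was in 2 (7.41%; all starts 12.6%), Foxa3 and the most downstream Foxa2 start. A missing match says only that these letters are not in this window.

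Genes of the pathways around forkhead factors were read from 7 lists with 57 genes. Among them 48 were acetylated, 7 in H3K27me3 domains and 2 in neither class. All 10 genes upstream of FoxO (among them kinases, the insulin receptor and its substrates) were acetylated, with H3K27ac peaks of 10.8 kb at Irs1 and 10.2 kb at Sgk1. All 12 FoxO targets were acetylated and free of H3K27me3, the widest H3K27ac peak being 11.1 kb at Cdkn1b, the cell-cycle inhibitor p27. All 8 FoxM1 targets were acetylated as well, with H3K4me3 folds from 22.8 at Cdc25b to 36.3 at Kif20a, and so were all 8 corepressor partners of Foxp and Foxk factors. With 60.3% of all genes acetylated, these counts are given as a description.

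The lists around the developmental members were mixed. Of 7 hedgehog genes, the ligands Shh and Ihh had H3K27me3 over the whole window, while Smo, Ptch1, Gli1, Gli2 and Gli3 were acetylated, Gli1 with H3K27me3 over 49.3%. Of 6 partners of Foxh1, Smad2, Smad3 and Smad4 were acetylated (widest H3K27ac peak 13.1 kb at Smad3), Lefty2 was in a domain (73.8%), and Nodal (49.6% H3K27me3) and Lefty1 were in neither class. Of 6 multiciliation partners of Foxj1, Myb and Rfx3 were acetylated. Dnah5 (86.2%), Mcidas (62.0%), Gmnc (61.1%) and Tekt1 (59.2%) were in H3K27me3 domains. Among these, Dnah5 also had 3 H3K27ac peaks and H3K4me3 (fold 13.2), and Mcidas had H3K4me3 (fold 4.88). Foxj1 itself had no H3K27me3 peak, and its H3K27ac and H3K4me3 peaks also reached Rnf157. In the hedgehog list, Foxf1 (domain) and Foxf2 (acetylated), known targets of the pathway, fell in different classes.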

How the data were processed

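Per the labels, ChIP-seq was done on Comma-Dβ cells with 4 antibodies and input, 4 replicates each. The submitters' processing notes give the build as mm10 and list SAMtools with no version. The aligner, the caller and the merging of replicates were not stated there or in the file headers, and read depth per sample is unknown. The deposited HEB list holds positions only, and its name describes a consensus with a minimum overlap of 2. Each deposited histone peak has a score, which was not used, a fold enrichment (a ratio of ChIP over control) and a −log10 q-value, all the authors' own.

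Gene positions, starts and start sequences came from RefSeq tables of GRCm38.p6, with 21887 protein-coding genes, in which all 37 members were found. Python 3.11.15, pandas 2.3.3 and numpy 2.4.6 were used, and the interval functions were tested on simulated data. An overlap needed 1 bp. Distances ran from the nearer gene end. H3K27me3 peaks at most 3 kb apart were joined, and members at most 200 kb apart were treated as a group of neighbours. The members and gene lists were chosen with earlier results of these data known. Values in full were set for acetylated members, Foxi1, members near a HEB site and the 6 with the longest joined domain, with other members by range, though further domain members are also named, chosen after their values were seen. In pathway lists at most 4 genes were to be named by widest H3K27ac peak or largest H3K27me3 share; the others named there were likewise chosen afterwards. Protein sequences were not used here.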

Additional observations from a re-analysis of the deposited data

How the results depend on the processing

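No paired analysis was possible because the lists carry no replicate columns, and leaving out replicates could not be run for the same reason. Over the 9 settings that bear on the classes, the acetylated class held 18 to 23 members and the H3K27me3 domain class 12 to 18, which is within 1.5 times the reported counts. Foxc2 became acetylated with −log10 q of 5 or more, with 5 kb flanks and with the domain line at 75%, where Foxd2 and Foxs1 did too. Foxp2 left the domain class for neither class with −log10 q of 5 or more, with peaks above each list's median fold (also when applied to H3K27me3 alone, an alternative chosen after seeing the data) and at 75%. Without flanks Foxa3 joined the domain class and Foxl1 neither class, at 25% Foxa3 and Foxh1 joined the domain class, and with gene ends only, also chosen after seeing the data, Foxh1 joined it and Foxn1 neither class.

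H3K4me3 at domain members fell from 7 to 2 with peaks above the median fold and to 4 with the line at 75%. HEB near acetylated members fell from 5 to 1 at 50 kb. HEB near domain members went from 2 to 1 at 50 kb or with the line at 75%, and to 5 at 200 kb. The median number of H3K27ac peaks near acetylated members, 13.5, became 7 with −log10 q of 5 or more, 7.5 above the median fold, 8.5 at 50 kb and 22 at 200 kb, and that near domain members, 5, became 2 with −log10 q of 5 or more, 1.5 at 50 kb and 11 at 200 kb. Fewer peaks or another distance set these counts by construction, and the acetylated median was the higher one under each of these settings. Depth is unknown. H3K27me3 peaks had a median fold of 1.74, and 9.53% of them had −log10 q of 5 or more.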
